A study of Rattus norvegicus with 8 samples.

Results

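The inducible transcription factors of the AP-1, SRF and EGR families were followed in H9c2 cells, a myoblast line from embryonic rat heart, across spaceflight and nanoceria treatment. The set was 10 genes chosen by name: Srf, the Fos family (Fos, Fosb, Fosl1 and Fosl2), the Jun family (Jun, Junb and Jund), and Egr1 and Egr2. All 10 were found by symbol, each with 1 probe set, among 15037 gene symbols and 23188 probe sets on the rat Clariom S Pico array. Nanoceria are cerium oxide nanoparticles, given at 100 µg/ml after coating with serum and studied as scavengers of reactive oxygen species. The 4 groups were untreated cells on ground (2 arrays, replicates 1 and 3), nanoceria-treated cells on ground (3 arrays), untreated cells aboard the International Space Station (1 array) and nanoceria-treated cells aboard the station (2 arrays). Every culture was kept in low-serum differentiation medium in the same flight hardware and fixed on day 10 after seeding. All samples shared a pouch temperature of 27 °C, entry into an incubator on day 7 and an incubator temperature of 37 °C. Ground cells were cultured after the flight, following its temperature record, so gravity regime and culture run cannot be told apart. All cells were of 1 line, and no label states that replicates came from separate cultures. The p-values therefore reflect only how far these samples lie from each other, which may be technical.

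Immediate early genes are transcribed within minutes of a stimulus, without new protein synthesis. Serum response factor (SRF) sits on CArG boxes in their promoters and in those of actin and other contractile genes, and it works either with ternary complex factors, which answer to ERK, or with myocardin-related factors (MRTFs), which answer to actin polymerisation. FOS and JUN proteins pair through leucine zippers to form AP-1, in which JUN proteins can pair with one another while FOS proteins need a JUN partner. EGR1 and EGR2 are zinc finger factors of the same early response. In muscle, SRF is needed for the actin and sarcomere programme, and AP-1 is linked to growth, stress and matrix remodelling.

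Levels are log2 of the deposited intensity, and differences are on the log2 scale with their standard error (SE). Median intensities ran from 107.3 to 116.6 over the 8 arrays, and no detection measure was available. Among muscle markers, Myog ran from 6.25 to 9.89, Myod1 from 6.97 to 8.19 and Cdh15, muscle cadherin, from 8.54 to 9.55. Des ran from 6.64 to 7.80, Tnni1 from 6.93 to 9.49 and Acta1 from 7.52 to 10.81. Chrna1 (4.41 to 6.90), Myf5 (4.01 to 4.75) and Myf6 (4.18 to 4.82) reached lower levels. Cardiomyocyte markers were divided, with Tnnt2 at 9.18 to 11.43 and Ryr2 at 3.71 to 4.89. Between them lay Nkx2-5 (6.95 to 7.41), Nppb (6.83 to 7.19), Nppa (5.71 to 7.07), Tnni3 (6.12 to 6.52) and Gata4 (5.68 to 6.64). Markers of other cell types were mixed. The leukocyte marker Ptprc (4.03 to 4.62), the endothelial marker Pecam1 (4.16 to 4.73) and the epithelial marker Epcam (3.75 to 4.19) were low on every array. Others on the same lists were not, with Cd68 at 7.11 to 7.74, Kdr at 5.85 to 6.24, Krt18 at 6.33 to 6.71 and Krt8 at 10.42 to 12.15. Fibroblast markers were also divided, with Col1a1 at 14.10 to 14.24 and Pdgfra at 5.17 to 5.92. Between them lay Dcn (11.02 to 12.44), Thy1 (9.91 to 11.60), Lum (8.22 to 10.02) and Fbln1 (8.05 to 9.70). Ground untreated replicate 3 stood apart. Its 9 measured proliferation genes, such as Mki67 and Plk1, averaged -2.25 relative to the mean of all 8 arrays, against -0.10 to 0.49 on the other arrays, and all 9 had their lowest value there. No probe set of 23188 passed limma with Benjamini-Hochberg adjustment at 0.05 in any of the 5 comparisons (0 called, a share of 0%), so members are also described at an unadjusted p below 0.05, beside the share of all probe sets that met the same mark.

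Srf was the member with the clearest difference between treated and untreated cells on ground. Its promoter carries a pair of CArG boxes close to the start site, the element to which SRF itself binds. It is shown because contractile genes known to carry the same element are described further on. The sequence is RefSeq's (build GRCr8), from 250 bases before to 50 after the start, 5′ to 3′ on the gene's strand. Capitals mark matches to a CArG box or to TATAAA on either strand.
Srf promoter, chr9:21923826-21924125, plus strand: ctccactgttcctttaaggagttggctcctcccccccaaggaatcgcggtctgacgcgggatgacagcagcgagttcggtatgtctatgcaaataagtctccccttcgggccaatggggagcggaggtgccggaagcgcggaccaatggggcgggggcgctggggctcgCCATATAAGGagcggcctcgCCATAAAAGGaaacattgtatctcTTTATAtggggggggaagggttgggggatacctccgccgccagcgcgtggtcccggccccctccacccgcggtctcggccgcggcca
The CArG matches in the Srf promoter start at positions -81 and -61 relative to the transcription start. Of 8 member promoters in the table, 3 (Srf, Egr1 and Egr2) held a CArG box, against 1.64% of all 33469 promoters of that length.

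Srf lay at 8.45 and 7.98 in untreated cells on ground and at 9.38, 9.10 and 9.00 in treated cells on ground. In space it lay at 8.54 in untreated and at 8.61 and 8.56 in treated cells. The treated ground arrays were thus above every other array, the 3 space arrays were within 0.07 of each other, and ground untreated replicate 3 was lowest. Group means were 8.21 ± 0.33 (SD, n = 2) for ground untreated, 9.16 ± 0.20 (SD, n = 3) for ground nanoceria and 8.59 ± 0.03 (SD, n = 2) for space nanoceria. In ascending order the means were ground untreated, space untreated, space nanoceria and ground nanoceria. The untreated space array lay at the upper edge of the SD range of untreated ground cells, the space groups differed from one another by 0.05, and the treated ground group lay apart from the rest.

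On ground the nanoceria difference for Srf was 0.95 ± 0.20, a fold of 1.93, with an unadjusted p of 0.00193 and an adjusted p of 0.207 (limma). It was 0.71 (unadjusted p = 0.0149, limma) without ground untreated replicate 3 and 1.18 (adjusted p = 0.0798, limma) without ground untreated replicate 1. In bulk RNA, a lower level from fewer cells of a kind cannot be told apart from less RNA per cell. The 9 measured muscle markers averaged -0.29 and -0.87 relative to the 8-array mean in untreated ground cells and 0.21 to 0.64 in treated ground cells, with Myf5 (4.01 to 4.75) and Myf6 (4.18 to 4.82) low on every array. The 6 fibroblast markers averaged -0.27 and -0.42 in the same untreated cells and -0.13 to 0.34 in the treated. The 5 epithelial markers averaged -0.25 and -0.11 in the untreated and 0.02 to 0.19 in the treated ground cells. The part of these and of the proliferation genes in the Srf difference was not tested.

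In space the treated arrays differed from the single untreated array by 0.05 for Srf. The difference between the nanoceria effects in space and on ground was -0.90 ± 0.34 for Srf, with an unadjusted p of 0.0308 and an adjusted p of 1.00 (limma). It was the 1 member at an unadjusted p below 0.05 in this test, where 2.35% of all probe sets were. Its unadjusted p was 0.0772 without ground untreated replicate 3, 0.0654 or 0.0772 without space nanoceria replicate 1 or 2, and 0.0515 without ground nanoceria replicate 1 (limma). On the lower side that share was 0.906% of all probe sets, and on the higher side 1.44%. Among treated cells, the space difference for Srf was -0.57 ± 0.20 (unadjusted p = 0.0234, adjusted p = 0.515, limma), which uses the same 3 treated ground arrays as the nanoceria difference on ground. The unadjusted p was 0.0775 or 0.0989 without space nanoceria replicate 1 or 2, and 0.0647 without ground nanoceria replicate 1 (limma). Over both regimes the nanoceria difference for Srf was 0.63 ± 0.21 (unadjusted p = 0.0169, limma). That value was 0.40 (unadjusted p = 0.0715, limma) without ground untreated replicate 3 and 0.95 without space untreated replicate 1.

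The Jun family lay lower in space. Junb encodes a JUN protein that often restrains JUN-driven growth, and Jun encodes the main partner of FOS. Jund encodes the member of the family that is usually present without a stimulus. Over both treatments the space difference was -0.85 ± 0.16 for Junb (a fold of 0.554), -0.62 ± 0.14 for Jun (a fold of 0.652) and -0.22 ± 0.12 for Jund. Junb and Jun were the only members of the 10 at an unadjusted p below 0.05 for space against ground (0.000734 and 0.00179, limma), where 9.56% of all probe sets met that mark 4.26% on the lower side and 5.3% on the higher. Their adjusted p was 0.329 and 0.340 (limma).

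Junb lay at 7.37 in untreated and at 7.51 and 7.93 in treated cells in space. On ground it lay at 8.27 and 7.99 in untreated and at 8.57, 8.39 and 8.89 in treated cells. All 3 space arrays were below all 5 ground arrays, with a gap of 0.06 between space nanoceria replicate 2 and ground untreated replicate 3. Group means, in ascending order, were space untreated (7.37), space nanoceria (7.72 ± 0.30, SD, n = 2), ground untreated (8.13 ± 0.20, SD, n = 2) and ground nanoceria (8.62 ± 0.25, SD, n = 3). The SD ranges of space nanoceria and ground untreated cells met only at their edges, and those of the ground groups did not meet.

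Jun lay at 8.96 in untreated and at 9.45 and 9.29 in treated cells in space. On ground it lay at 9.64 and 9.57 in untreated and at 9.73, 9.98 and 10.22 in treated cells. The arrays fell in the same group order as for Junb, and the space and ground arrays again did not overlap, with a gap of 0.12. The arrays of 2 of the 10 members did not overlap between regimes, both lower in space, where 5.11% of all probe sets did so, 3.14% on the lower side and 1.97% on the higher. The single untreated space array held the lowest value of Jun, Junb, Jund and Fosb. Ground nanoceria replicate 3 held the highest value of each of these 4 genes, and of Fos and Egr1.

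Leaving out 1 array at a time moved the space difference of Junb between -0.95 and -0.73 and that of Jun between -0.69 and -0.55. The unadjusted p over these 8 fits ran from 0.000852 to 0.00483 for Junb and from 0.000784 to 0.0128 for Jun (limma). Among treated cells alone the difference was -0.90 ± 0.22 for Junb (adjusted p = 0.392, limma) and -0.61 ± 0.19 for Jun (adjusted p = 0.458, limma). Srf, Jun and Junb were the 3 members at an unadjusted p below 0.05 there, all lower in space, where 8.41% of all probe sets met that mark, 3.39% on the lower side and 5.02% on the higher. Without space nanoceria replicate 2 the unadjusted p of Jun was 0.0855 (limma). The arrays of these 3 genes did not overlap between the treated groups, nor did those of Fosl1, which lay higher in space, where 31.2% of all probe sets did not overlap (17.6% lower and 13.6% higher). Against untreated ground cells the single untreated space array differed by -0.77 for Junb and -0.64 for Jun, without a replicate in space.

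Jun and Junb lay higher in treated than in untreated cells in both regimes. Over both regimes the difference was 0.44 ± 0.16 for Junb (unadjusted p = 0.0278, adjusted p = 0.470, limma) and 0.38 ± 0.14 for Jun (unadjusted p = 0.0223, adjusted p = 0.462, limma). On ground it was 0.48 ± 0.22 and 0.37 ± 0.19, and in space, against 1 array, 0.35 and 0.41. The nanoceria effect in space minus that on ground was -0.13 ± 0.37 for Junb and 0.03 ± 0.31 for Jun, both smaller than their SE. Leaving out 1 array raised the pooled unadjusted p of Junb to 0.102 (ground untreated replicate 3), 0.0630 (space nanoceria replicate 2), 0.0612 (space untreated replicate 1) and 0.0529 (ground nanoceria replicate 3) (limma). For Jun it became 0.0825 without space untreated replicate 1, 0.0574 without ground untreated replicate 3 and 0.0510 without space nanoceria replicate 1 (limma).

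The Junb promoter is shown because Junb had the largest space difference of the members. It held a TATAAA match (capitals) 49 bases before the start and no CArG box or AP-1 site (TGACTCA) in this window. TATAAA was found on either strand in 14.2% of all promoters.
Junb promoter, chr19:40080876-40081175, plus strand: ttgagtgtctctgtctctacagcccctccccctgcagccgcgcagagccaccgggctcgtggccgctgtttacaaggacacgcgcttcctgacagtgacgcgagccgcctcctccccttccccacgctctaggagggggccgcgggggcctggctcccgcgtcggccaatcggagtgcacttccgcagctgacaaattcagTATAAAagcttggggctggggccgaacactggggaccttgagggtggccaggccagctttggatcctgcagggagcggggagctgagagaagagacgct

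Members of the Fos family differed from one another. Fosl1 encodes FRA-1, which lacks the strong activation domain of FOS and is itself a known AP-1 target. It lay at 8.63 and 8.93 in untreated and at 9.32, 9.29 and 9.22 in treated cells on ground, and at 9.16 in untreated and at 9.35 and 9.66 in treated cells in space. Every treated array was thus above every untreated array, by at least 0.06. Over both regimes the nanoceria difference was 0.44 ± 0.13 for Fosl1 (unadjusted p = 0.00913, adjusted p = 0.424, limma), and 0.35 to 0.51 with 1 array left out. On ground it was 0.50 ± 0.17 (unadjusted p = 0.0231, limma), with an unadjusted p of 0.138 without ground untreated replicate 1, 0.0522 without ground nanoceria replicate 1 and 0.0540 without replicate 2 of that group (limma). For space against ground Fosl1 lay at 0.28 ± 0.13 (adjusted p = 0.549, limma), opposite in sign to the 3 Jun genes.

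Fos, the founding member of AP-1, was nearly flat, with levels of 6.60 to 7.09 over all 8 arrays. It lay at 6.82 and 6.60 in untreated and 6.89, 6.96 and 7.09 in treated ground cells, and at 6.82 in untreated and 6.98 and 6.86 in treated space cells. All treated arrays were above all untreated ones, by a gap of 0.04, with a nanoceria difference of 0.21 ± 0.12 (adjusted p = 0.609, limma). Fosb ran from 7.41 to 8.39, with a space difference of -0.34 ± 0.17 (adjusted p = 0.574, limma), and its highest array was ground nanoceria replicate 3. Fosl2, which encodes FRA-2, was within 10.95 to 11.81, with its lowest value on ground nanoceria replicate 1 and its highest on ground untreated replicate 3. Its nanoceria difference on ground was -0.21 ± 0.26, turning to 0.07 without ground untreated replicate 3, and Fosl2 was the 1 member not higher with nanoceria over both regimes (-0.04 ± 0.21, but 0.05 with array weights and 0.02 with 1 mean per group).

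The EGR factors showed differences near or below their SE. Egr1 ran from 11.19 to 11.94 over the 8 arrays, and 7 of them lay within 11.19 to 11.43, ground nanoceria replicate 3 being the exception. Its differences were -0.07 ± 0.17 for space and 0.18 ± 0.17 for nanoceria. Egr2, known for its part in myelination, lay at 5.94 and 7.12 on the untreated ground arrays, which are its lowest and its highest value over all 8 arrays. Its differences were -0.01 ± 0.26 for space and 0.16 ± 0.26 for nanoceria. The Egr promoters are shown to set beside Srf, since they hold CArG boxes (capitals) in the same window.
Egr1 promoter, chr18:26736828-26737127, plus strand: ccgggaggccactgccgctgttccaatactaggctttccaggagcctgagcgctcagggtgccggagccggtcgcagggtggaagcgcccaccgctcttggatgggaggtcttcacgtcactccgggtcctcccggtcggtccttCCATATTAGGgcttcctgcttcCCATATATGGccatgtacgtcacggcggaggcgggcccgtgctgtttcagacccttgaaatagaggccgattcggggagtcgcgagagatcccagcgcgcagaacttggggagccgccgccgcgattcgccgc
Egr2 promoter, chr20:21054392-21054691, minus strand: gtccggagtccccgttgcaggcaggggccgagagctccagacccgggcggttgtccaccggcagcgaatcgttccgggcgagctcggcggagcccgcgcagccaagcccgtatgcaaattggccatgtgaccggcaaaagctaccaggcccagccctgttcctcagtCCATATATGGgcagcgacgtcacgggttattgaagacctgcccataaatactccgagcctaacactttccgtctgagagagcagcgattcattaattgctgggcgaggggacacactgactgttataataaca
CArG matches start at positions -105 and -83 in Egr1 and at -83 in Egr2. Of the other motifs, a cAMP response element (TGACGTCA, in 1.83% of all promoters) and an EGR site (GCGTGGGCG, in 0.544%) were found in the Jund promoter alone, and the AP-1 site (4.63%) in none of the 8. A match describes letters and shows no binding.

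Over the 10 members together, 9 were higher and 1 lower with nanoceria over both regimes, with a median difference of 0.23, where 56.0% of all probe sets were higher and their median was 0.03. At an unadjusted p below 0.05 there were 4 (Fosl1, Srf, Jun and Junb), all higher, against 9.63% of all probe sets, 3.77% on the higher side and 5.86% on the lower. The arrays of Srf, Fos and Fosl1 did not overlap between treated and untreated cells, 3 of 10, where 4.74% of all probe sets did so, 2.47% on the higher side and 2.28% on the lower. On ground alone the counts were 2 at an unadjusted p below 0.05 (Srf and Fosl1, against 11% of all probe sets, 4.42% higher and 6.57% lower) and 5 without overlap (Srf, Fos, Fosl1, Jun and Junb, against 26.3% of all probe sets, 14.3% higher and 12% lower). For space against ground 7 of 10 were lower with a median of -0.15, where 41.3% of all probe sets were higher and the median was -0.04. The members were proposed with earlier results in view, so these counts describe them and are no test.

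Genes that SRF and MRTFs are known to drive in the cytoskeleton lay higher with nanoceria on ground, with 20 of 20 measured genes higher and a median difference of 0.41, against 55.5% higher and a median of 0.04 over all probe sets. At an unadjusted p below 0.05 there were 5 of 20, all higher, beside 11% of all probe sets and 4.42% on the higher side. That count depended on the processing. It was 1 under cyclic loess scaling, 2 with the replicate number as a block, 4 with array weights and 9 under equal medians. The shares of all probe sets under these settings are not given. The skeletal muscle actin gene Acta1 lay 2.09 ± 0.47 higher, at 7.52 and 9.21 on the 2 untreated arrays and 10.27 to 10.81 in treated cells. Actg2, an enteric smooth muscle actin, differed by 0.47 ± 0.16 and Zyx, the focal adhesion protein zyxin, by 0.94 ± 0.35. Ccn2, a matricellular growth factor, differed by 0.75 ± 0.26 and the beta-tropomyosin gene Tpm2 by 0.47 ± 0.19. None passed the adjusted threshold (0 of 20). Of the 20 genes, 19 had their lowest value on ground untreated replicate 3. Without that array 16 of 20 were higher, the median was 0.17 and 1 gene, Acta1 at 1.25, was at an unadjusted p below 0.05. Zyx then lay at 0.34, Actg2 at 0.34, Ccn2 at 0.28 and Tpm2 at 0.28. Among treated cells, all 20 were lower in space than on ground with a median of -0.21 (18 of 20 under cyclic loess scaling), against -0.05 over all probe sets. The 2 comparisons share the treated ground arrays. For nanoceria over both regimes all 20 genes were higher, with a median of 0.25, and 0.09 without ground untreated replicate 3. At an unadjusted p below 0.05 there were 0 of 20, beside 9.63% of all probe sets. For space against ground 6 were higher and 14 lower, with a median of -0.06. There 0 were at that mark, beside 9.56% of all probe sets. The genes of smallest p for space were Actg2 (-0.24 ± 0.14) and the leiomodin gene Lmod1 (-0.35 ± 0.25). The 9 proliferation genes were all higher with nanoceria on ground, with a median of 1.07, and 3 of them (Aurka at 1.56 ± 0.49, Cdc20 at 2.53 ± 0.89 and Plk1 at 2.38 ± 0.89) were at an unadjusted p below 0.05. Without ground untreated replicate 3 their median was 0.21 and 5 of 9 were higher, 2 were higher and 3 lower at that mark, and Aurka lay at 0.64, Cdc20 at 0.71 and Plk1 at 0.54. The means of the muscle, fibroblast and epithelial markers, given beside Srf, were also lower on both untreated than on all treated ground arrays. Those of the cardiomyocyte, endothelial and leukocyte markers were not. Acta1 is on both the muscle marker list and the SRF target list. The part of these lists in the difference of the SRF targets was not tested.

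Other immediate early genes were mostly higher with nanoceria on ground, 23 of 27 with a median of 0.27, against 55.5% and 0.04 over all probe sets. At an unadjusted p below 0.05 there were 4 of 27, all higher, beside 11% of all probe sets and 4.42% on the higher side. They were Gadd45b, a growth arrest and stress gene, at 0.81 ± 0.22, the pseudokinase gene Trib1 at 1.04 ± 0.32, Egr3 at 0.47 ± 0.17 and the TGF-beta-inducible factor gene Klf10 at 0.77 ± 0.29. The count on the higher side was 2 with array weights, 2 with the replicate number as a block and 5 under equal medians. Shares of all probe sets under these settings are not given. Without ground untreated replicate 3 there were 17 of 27 higher, with a median of 0.19. Of the named genes Gadd45b, at 0.47, was then still at that mark, while Trib1 lay at 0.64 (unadjusted p = 0.0998, limma), Egr3 at 0.49 (unadjusted p = 0.0721, limma) and Klf10 at 0.55 (unadjusted p = 0.167, limma). For space against ground the list was divided, 13 higher and 14 lower, where 41.3% of all probe sets were higher. At an unadjusted p below 0.05, 2 of 27 were higher and 2 lower, beside 5.3% and 4.26% of all probe sets. The salt-inducible kinase gene Sik1 lay higher at 1.17 ± 0.32 and the EGF-family ligand gene Hbegf at 0.62 ± 0.19. On the lower side were Zfp36, which encodes an mRNA-decay factor, at -0.94 ± 0.32 and Arc at -0.45 ± 0.18. All had an adjusted p above 0.05 (0 of 27 passed, limma).

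Among genes known to respond to AP-1, 12 of 17 were higher with nanoceria on ground, with a median of 0.18 that was 0.02 without ground untreated replicate 3. Over all probe sets 55.5% were higher and the median was 0.04. At an unadjusted p below 0.05, 1 of 17 was higher and 2 were lower, beside 4.42% and 6.57% of all probe sets. The cytokine gene Il6 lay lower, at -1.06 ± 0.28, with 8.21 and 8.63 in untreated and 6.88 to 7.70 in treated ground cells. The urokinase receptor gene Plaur lay higher at 0.69 ± 0.23 (0.47 with an unadjusted p of 0.130 in limma without ground untreated replicate 3) and the EGF-family gene Areg lower at -0.99 ± 0.39 (-0.24 without ground untreated replicate 3), while Vegfa lay at -0.69 ± 0.31. In space against ground Il6 (0.77 ± 0.22) and Vegfa (0.84 ± 0.24) were higher at an unadjusted p below 0.05, 2 of 17 beside 5.3% of all probe sets. Plaur (-0.55 ± 0.19), Areg (-1.03 ± 0.40) and Tgfb1 (-0.47 ± 0.18) were lower at that mark, 3 of 17 beside 4.26%. None of the 17 passed the adjusted threshold (0 genes), and the list holds genes on both sides.

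The dimer partners and cofactors of these factors were counted at an unadjusted p below 0.05. Of 11 AP-1 dimer partners measured there were 0 on ground and 0 for space against ground, beside 11% and 9.56% of all probe sets. For nanoceria over both regimes there was 1, beside 9.63%. That was Atf2, a partner of JUN, at -0.53 ± 0.23 (unadjusted p = 0.0474, limma). On ground Atf2 lay at -0.68 ± 0.29, and at -0.91 (unadjusted p = 0.0393, limma) without ground untreated replicate 3. Next by p on ground were the small Maf gene Mafg (-0.28 ± 0.15), Maf (0.30 ± 0.20) and the small Maf gene Mafk (0.10 ± 0.15). In space against ground Batf3 lay at -0.26 ± 0.14 and Maf at 0.29 ± 0.15. Of 6 SRF cofactors, Abra, an actin-binding activator of SRF signalling in striated muscle, was the 1 at that mark for nanoceria on ground (-0.39 ± 0.16, beside 11% of all probe sets) and for space (-0.30 ± 0.12, beside 9.56%). Its unadjusted p on ground was 0.0529 without ground untreated replicate 3 (limma). For nanoceria over both regimes 2 of the 6 were lower at that mark, Abra at -0.42 ± 0.12 and Elk4 at -0.27 ± 0.11. Beside them were 9.63% of all probe sets, 5.86% on the lower side. The ternary complex factor genes Elk4 (-0.22 ± 0.15) and Elk1 (-0.14 ± 0.20) and the LIM protein gene Fhl2 (0.45 ± 0.32) were not at that mark on ground, and Fhl2 lay at -0.13 without ground untreated replicate 3. Elk4 lay at 0.10 ± 0.11 for space.

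The genes most like a member were sought for the 3 members that varied most over the 8 arrays (Junb, Srf and Jun), by the smallest root mean square difference of centred log2 values among 15005 other named genes. For Srf they were Gpx7, a peroxidase of the endoplasmic reticulum (0.09), and the caveolar coat gene Cavin1 (0.11). For Junb they were the myosin chaperone gene Unc45a (0.12), the olfactory receptor gene Or51i2 (0.14) and Clip2, a microtubule-binding protein (0.15). For Jun they were Nbl1, a BMP antagonist (0.11), the olfactory receptor gene Or4c29 (0.12) and Ppp1r10, a phosphatase-targeting subunit (0.13). The SD over arrays was 0.52 for Junb, 0.44 for Srf and 0.39 for Jun.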

How the data were processed

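Total RNA from 8 samples of H9c2 cells, 30 ng each, was hybridised, 1 rat Clariom S Pico array per sample. The deposited table held 1 linear intensity per probe set and array, made by the authors with RMA, per the submitters' processing notes. Its software, version and settings are not given in the sources used here. RMA scales arrays to a shared distribution, so only relative changes can be seen. Intensities ran from 8.63 to 19506, and log2 was taken without a pseudocount. Gene symbols came from the platform annotation, where 15049 probe sets had 1 symbol and 8139 had none here. All 10 members matched RefSeq by gene identifier, and the brightest probe set stood for a symbol.

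Group differences came from limma 3.58.1 (R 4.3.3) over all 23188 probe sets, with empirical Bayes variances and Benjamini-Hochberg adjustment at 0.05. Space against ground and nanoceria against untreated came from an additive fit (5 residual degrees of freedom). The other 3 comparisons came from 1 mean per group (4 residual degrees of freedom), where the single untreated space array takes its spread from the others. The number of arrays limits precision, with a median SE of 0.17 in the additive fit and 0.21 to 0.35 in the other. The fits were tested on simulated data with changes in 200 of 23188 probe sets. Of 2-fold changes, 55.5% (space) and 44% (nanoceria) were recovered after adjustment in the additive fit. In the other 3 comparisons 0% were, so a change of that size could go uncalled there. Of 4-fold changes, 36.5% (interaction) to 93% (space against ground) were recovered. At an unadjusted p below 0.05, 69.5% to 96% of 2-fold changes were recovered (limma).

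The members and the lists were chosen with earlier results of these data known. All members were named, with up to 4 genes per list by smallest p for nanoceria on ground and up to 2 for space. Genes named beyond that (Tpm2, Zfp36, Arc, Tgfb1, Map2k6, Map2k7, Mapk8, Plaur and Areg for space, and Abra, Elk4 and Atf2 over both regimes) were chosen after their values were seen. A gene that the rule picked among the upstream kinases and one among the genes most like a member are not reported here. Alternatives were cyclic loess, equal array medians, the brighter 2 of 3 parts of probe sets, a variance trend with robust estimation, array weights, the replicate number as a block, fits of fewer groups, and each array left out.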

Additional observations from a re-analysis of the deposited data

How the results depend on the processing

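No member passed an adjusted p of 0.05 in any of the 5 comparisons under any of the alternatives run (limma), and of 730 member values recomputed, 687 kept their direction and 43 reversed, 31 of those with an array left out. Array weights gave 4 probe sets for space against ground, and leaving out 1 array gave 0 to 1 there and 0 to 167 for nanoceria on ground, the 167 without ground untreated replicate 1, which leaves ground untreated replicate 3 alone. The share of all probe sets at an unadjusted p below 0.05 is not given for these alternatives. The member counts that follow are therefore descriptions that cannot be set against the whole array. Members at an unadjusted p below 0.05 numbered 4 under equal medians for nanoceria on ground (2 as reported). Deviations of same-numbered arrays from their group means correlated at -0.35 to -0.01, and no array correlated best with one of its own number. In a group of 2 arrays these deviations mirror each other, so the check cannot show whether replicate numbers pair the arrays. With the replicate number as a block the members numbered 1 for nanoceria over both regimes, 1 on ground and 0 for the interaction. With 1 array left out they numbered 2 to 3 for space against ground, 1 to 4 for nanoceria over both regimes, 1 to 3 on ground, 1 to 3 for space in treated cells and 0 to 1 for the interaction.

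The values that reversed were smaller than their SE in the main fit. Some were larger once reversed, such as Egr2 for nanoceria on ground, from 0.17 to -0.42 without ground untreated replicate 1. For space against ground, Fos was -0.012 under equal medians and -0.00056 with the replicate block, Egr1 was 0.019 with the block, and Egr2 was 0.022 under cyclic loess and 0.17 with the block. Fosl2 for nanoceria was 0.050 with array weights and 0.022 with 1 mean per group. Egr2 for space in treated cells was 0.013 under cyclic loess and 0.16 with the block. For the interaction, equal medians gave -0.025 for Fosb and -0.013 for Jun, and array weights gave 0.000455 for Egr2. With 1 array left out, the ranges for space against ground were -0.057 to 0.055 (Fos), -0.16 to 0.053 (Egr1) and -0.19 to 0.16 (Egr2). For nanoceria they were -0.21 to 0.15 (Fosl2) and -0.15 to 0.47 (Egr2), and on ground -0.49 to 0.066 (Fosl2) and -0.42 to 0.76 (Egr2). For space in treated cells they were -0.12 to 0.0032 (Fos), -0.29 to 0.029 (Egr1) and -0.33 to 0.29 (Egr2). For the interaction they were -0.14 to 0.22 (Fosb), -0.31 to 0.00037 (Fosl1), -0.088 to 0.16 (Jun), -0.34 to 0.080 (Junb), -0.0040 to 0.17 (Jund) and -0.61 to 0.57 (Egr2). The cause was not tested. Without the single untreated space array the interaction could not be fitted. Each member has 1 probe set, so the alternative of other probe sets was not run.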

Other observations

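Upstream kinases and GTPases were divided with nanoceria. Of 18 measured, 5 were lower and 0 higher on ground at an unadjusted p below 0.05, beside 6.57% of all probe sets lower and 4.42% higher, and 0 passed after adjustment (limma). Mapk9, which encodes JNK2, lay at -1.32 ± 0.32, Mapk8, which encodes JNK1, at -0.65 ± 0.22 and Map2k4, which encodes a kinase that activates both, at -0.78 ± 0.23. Map2k7, which encodes the other kinase that activates them, lay on the opposite side over both regimes, at 0.38 ± 0.14. Mapk9 levels were 8.72 and 9.05 in untreated and 6.93 to 8.01 in treated ground cells, which did not overlap, as was so for 26.3% of all probe sets (12% on the lower side). The ERK-activated kinase gene Rps6ka3 lay at -0.87 ± 0.29. In the list as a whole 11 of 18 were higher, with a median of 0.10, against 55.5% and 0.04 over all probe sets. Without ground untreated replicate 3, 4 were lower and 2 higher by the same mark, and Mapk8 was no longer among them (unadjusted p = 0.0773, limma). For space against ground 3 of 18 were higher and 1 lower at an unadjusted p below 0.05, beside 5.3% and 4.26% of all probe sets. Among them Rps6ka3 lay at 0.58 ± 0.24, Map2k1, which encodes MEK1, at 0.46 ± 0.16 and Map2k6 at -0.37 ± 0.14. Without ground untreated replicate 3 these 3 genes lay at 0.59, 0.43 and -0.32.

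Feedback inhibitors of MAP kinases were divided. For space against ground 11 of 15 were higher, with a median of 0.18, against 41.3% and -0.04 over all probe sets. On ground 9 of 15 were higher with nanoceria, with a median of 0.05, against 55.5% and 0.04. With nanoceria on ground the phosphatase genes Dusp7 (0.50 ± 0.16), Dusp8 (0.41 ± 0.15) and Dusp1 (0.88 ± 0.33) were higher at an unadjusted p below 0.05, 3 of 15 beside 11% of all probe sets, and Dusp16 lay at -0.42 ± 0.18. Without ground untreated replicate 3, Dusp7 alone was at that mark and Dusp1 lay at 0.29. Dusp6, the ERK-specific phosphatase that ERK signalling itself induces, was the 1 of 15 at that mark for space against ground, a share below the 9.56% of all probe sets, at -0.86 ± 0.22 (adjusted p = 0.379, limma). Dusp6 lay at 9.40 in untreated and 9.50 and 10.09 in treated cells in space, against 9.76 and 10.67 in untreated and 10.57 to 10.76 in treated cells on ground. Spry2, a receptor kinase inhibitor, lay at 0.36 ± 0.17 for space.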
